A study of Mus musculus with 8 samples.

Results

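The interferon response genes described here are a list of 39 mouse genes, chosen by name, that encode sensors, transcription factors and effectors of the interferon system. A named array probe was at hand for 38 of them, of 19057 such genes in all; Ifi44 is not analysed here. Where a gene had several probes, the one brightest on average was used. Of the 38, 30 were tested because they exceeded the background limit (log2 intensity 6.796) on at least 4 of the 8 arrays.

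The RNA came from intestinal organoids, which are epithelial cultures grown in a gel, made from C57Bl mice aged 2 to 3 months. All cultures carried the Lgr5-EGFP-IRES-CreER allele and Apcflox/flox. CreER is a tamoxifen-activated recombinase, here driven by the stem cell gene Lgr5, so that Apc, a brake on Wnt signalling, is deleted from stem cells. Tamoxifen was given for 2 days, after which the Wnt agonist R-Spondin1 was left out of the medium, for 5 days in the 4 samples of day 7 and for 18 days in the 4 samples of day 20, to select cells that had lost Apc. Both groups had thus been deleted, no undeleted culture was among the samples, and time since deletion, time without R-Spondin1 and time in culture cannot be told apart. Whether the replicates of a day are separate cultures or animals is not stated, so p-values measure the spread between these arrays, which may be technical at day 7; at day 20 it takes in arrays that differ in sex chromosome signal, as described below.

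Interferons are secreted proteins that warn neighbouring cells of infection. Type I and type III interferons act through receptors coupled to Janus kinases, and the signal reaches promoters at interferon-stimulated response elements (ISRE), whereas that of type II interferon reaches them mainly at gamma-activated sites (GAS). The induced genes encode sensors of viral nucleic acid, factors that block entry, translation or release of viruses, and regulators that amplify or end the response. Epithelial cells of the gut respond mainly to type III interferon and also keep some of these genes active in the absence of infection.

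Of the 12466 genes tested, 604 changed between the days. Xist, transcribed in female cells, was above the limit on 6 arrays (9.39 to 10.41) and below it on day 20 replicates 1 and 4 (6.68 and 6.74), where the Y-linked gene Eif2s3y read 8.34 and 8.51 against 6.66 to 6.73 elsewhere. The arrays of day 20 thus differed in sex chromosome signal and those of day 7 did not. For some calls and directions that turn on this, the value on the 6 Xist arrays is given, but not for all. On those arrays the day difference also had the opposite sign for Dhx58, Gbp2, Igtp, Irf9, Trim25 and Usp18. Irf9, for example, had a mean of 8.235 on day 20 arrays with Xist signal and 8.152 at day 7. Of 9 epithelial markers, 8 were above the limit on every array, while the probe of Epcam was above it on 3 arrays of each day; Krt20, a marker of mature surface cells, fell (-2.26, limma adjusted p = 0.0382). Of the 15 leukocyte markers listed, 11 had a named probe. Ptprc, Cd8a and Itgam were above the limit on no array, while 5 markers were above it on at least 4, Cd14 and Csf1r on all 8. Of 4 endothelial and 6 fibroblast markers, 3 and 2 were above it on at least 4 arrays. The means of these 2 lists on single arrays ran from 6.753 to 6.91.

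Among the interferon response genes, 2 transcription factors rose by day 20 and no other tested member changed. Irf1, an activator of interferon-stimulated genes, was 1.66-fold higher and Irf8, a factor best known from myeloid cells, was 1.31-fold higher. The 28 other tested members, among them every tested member of the IFIT, OAS, IFITM and GTPase families, did not pass (limma, Benjamini-Hochberg adjusted p under 0.05). Over all genes tested 4.85% changed in either direction, 2.51% upward and 2.33% downward, so 2 of 30 is close to the background share. None of the 30 passed downward; 6 had an unadjusted p under 0.05 (20.4% of all genes did), and 20 of the 30 differences were negative. Their median log2 difference, day 20 minus day 7, was -0.09, beside 0.01 over all genes tested, and was of opposite sign, 0.012, on the 6 Xist arrays; the single differences ran from -0.53 to 0.735.

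**Figure D1:**
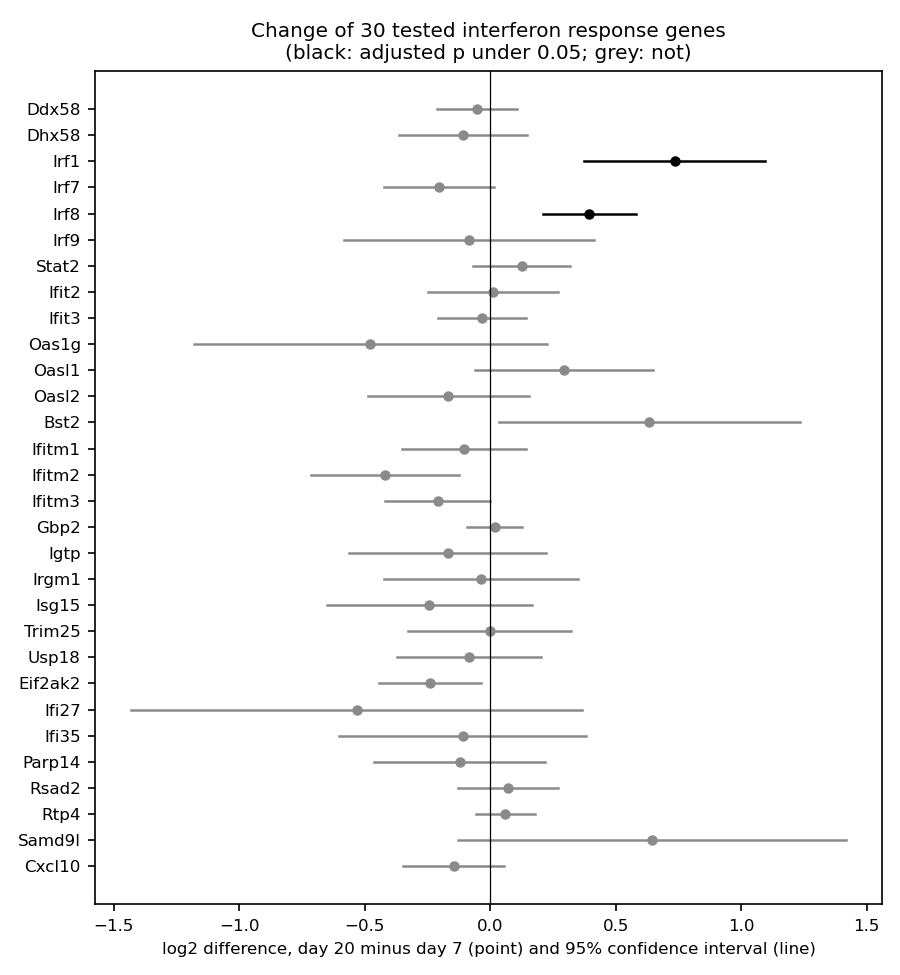
Log2 difference, day 20 minus day 7, of the 30 tested interferon response genes (points), with its 95% confidence interval from limma (lines), ordered by role from top to bottom. Irf1 and Irf8, in black, passed the adjusted threshold; the other 28, in grey, did not.

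Irf1 had log2 intensities of 10.55, 10.70, 10.40 and 9.96 on the 4 day 7 arrays and 10.98, 11.08, 11.35 and 11.14 on the 4 day 20 arrays. Every day 20 value lay above every day 7 value, and the lowest of all was that of day 7 replicate 4. The log2 difference was 0.735 (SE 0.16, 95% confidence interval 0.375 to 1.095, limma adjusted p = 0.0376; means 11.14 ± 0.16 and 10.40 ± 0.32, SD, n = 4 each). Of its 4 other probes, the next brightest differed by 0.63, whereas 3 dimmer ones, with day 20 means of 7.74, 7.71 and 6.77, differed by 0.11, 0.16 and -0.04. With probes averaged the change was 0.41 (adjusted p = 0.195). Irf1 also missed the threshold on the 6 arrays with Xist signal (0.81, adjusted p = 0.112) and without any 1 of day 7 replicates 1 and 3 and the 4 day 20 arrays (adjusted p from 0.0599 to 0.0856).

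Irf8 read 6.99, 6.93, 7.07 and 7.29 on the day 7 arrays and 7.50, 7.45, 7.47 and 7.44 on the day 20 arrays. The groups did not overlap, and the day 20 arrays lay within a narrow band (7.46 ± 0.03, against 7.07 ± 0.16, SD, n = 4 each). The log2 difference was 0.395 (SE 0.08, 95% confidence interval 0.211 to 0.579, limma adjusted p = 0.0317). Since all 8 values lie little above the limit, the change may be compressed, and with the background mode subtracted it was 0.97 (adjusted p = 0.02). It missed the threshold on the 6 arrays with Xist signal (0.39, adjusted p = 0.137) and without any 1 array except day 7 replicate 4 (adjusted p from 0.0541 to 0.0905). Of all genes tested, 13.1% had non-overlapping groups; of the 30 members these were Irf1 and Irf8.

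Because Irf8 and Bst2 also mark plasmacytoid dendritic cells and Irf8 other leukocytes, the levels of those lists are given beside it. The mean log2 intensity over the 11 leukocyte markers was 6.92 to 6.97 on the day 7 arrays and 6.97 to 7.06 on the day 20 arrays; 0 of the 5 tested changed in either direction (limma), the nearest being Cd14, a receptor for bacterial lipopolysaccharide, with a difference of 0.74 (adjusted p = 0.0599). The 5 plasmacytoid markers, which include Irf8 and Bst2 themselves, had a mean of 8.21 to 8.49 at day 7 and 8.19 to 8.73 at day 20, and Irf8 was the 1 that changed. Of the other 3, Siglech lay near the limit (6.87 and 6.80), while Tcf4 and Ly6d, the brightest of the list, differed by -0.65 (adjusted p = 0.279) and 0.33 (0.554). The part of leukocytes in the rise of Irf8 was not tested, and in bulk samples more RNA per cell and more cells of a type cannot be told apart.

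Of the 3 other transcription factors, none changed. Stat2 and Irf9, which act at ISRE elements, differed by 0.125 (adjusted p = 0.465) and -0.09 (0.878). A second, dimmer Irf9 probe, with means of 7.405 on day 7 and 7.052 on day 20, differed by -0.352 and was not tested on its own. Irf7, the factor that amplifies type I interferon production, was at 7.19 ± 0.16 on day 7 and 6.98 ± 0.12 on day 20 (SD, n = 4 each; limma adjusted p = 0.271). The cytosolic RNA sensors were dim: Ddx58 (RIG-I) and Dhx58 (LGP2) differed by -0.05 and -0.11 without passing, and Ifih1 (MDA5) was above the limit on no array, at 6.60 to 6.78.

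**Figure D2:**
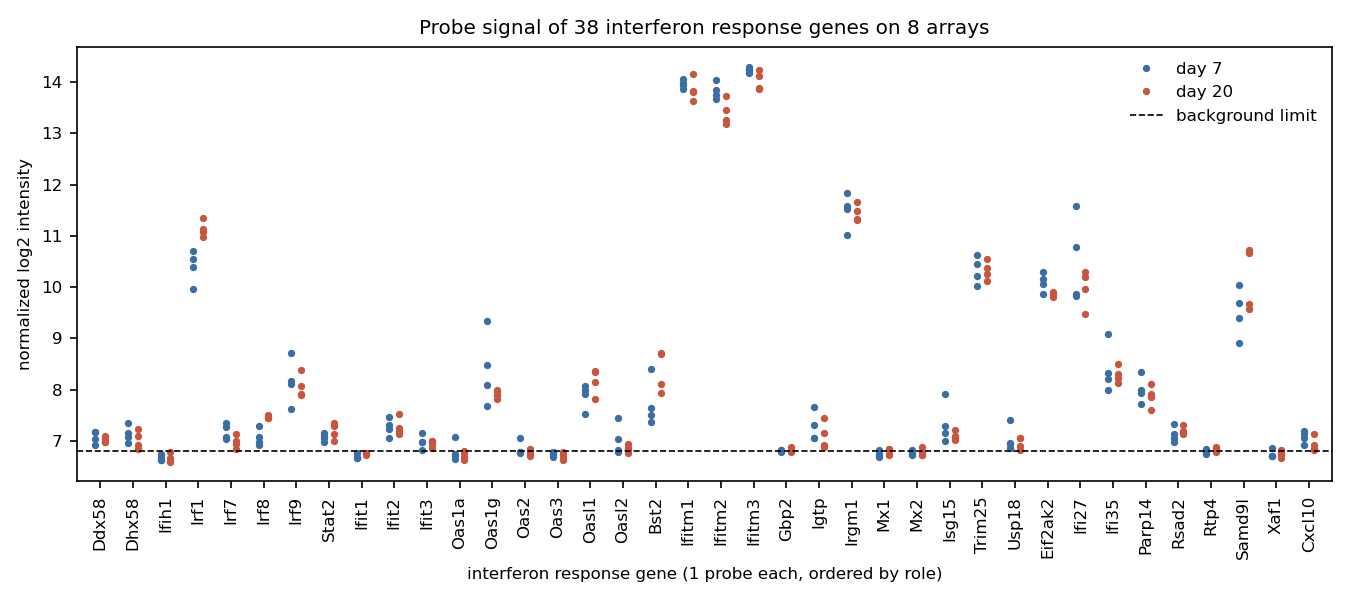
Normalized log2 intensity of 38 interferon response genes, 1 probe each, on 4 day 7 arrays (blue) and 4 day 20 arrays (red), with the background limit of 6.796 as a dashed line. The 3 Ifitm probes lie far above the limit and the probes of Ifit1, Ifih1 and Oas3 lie below it on all 8 arrays; signals of different probes are not comparable as amounts of RNA.

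The promoters of 4 members are shown because they hold letter matches to the cores of elements through which interferon signals act. They are those of Irf1 and Irf8, the members that rose, and those of Isg15 and Oas1g, both highest on day 7 replicate 4 as described below. Each is the 300 bases from 250 before to 50 after the RefSeq start in GRCm38.p6, 5′ to 3′ along the gene. Irf1 lies on the plus strand at chr11:53769764-53770063 and Irf8 on the plus strand at chr8:120736108-120736407; Isg15 lies on the minus strand at chr4:156200769-156201068 and Oas1g on the minus strand at chr5:120887564-120887863. Capitals mark matches, on either strand, to the GAS core (TTC, any 3 bases, then GAA) in the first pair and to the ISRE core (GAAA, any 2 bases, then GAAA) in the second pair, where overlapping matches run together.
Irf1: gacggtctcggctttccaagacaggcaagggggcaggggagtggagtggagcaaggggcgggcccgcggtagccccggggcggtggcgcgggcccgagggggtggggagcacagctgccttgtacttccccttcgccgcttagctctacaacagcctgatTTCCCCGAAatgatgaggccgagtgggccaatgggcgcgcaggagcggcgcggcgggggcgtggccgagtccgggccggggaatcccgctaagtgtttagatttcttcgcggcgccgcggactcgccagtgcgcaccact
Irf8: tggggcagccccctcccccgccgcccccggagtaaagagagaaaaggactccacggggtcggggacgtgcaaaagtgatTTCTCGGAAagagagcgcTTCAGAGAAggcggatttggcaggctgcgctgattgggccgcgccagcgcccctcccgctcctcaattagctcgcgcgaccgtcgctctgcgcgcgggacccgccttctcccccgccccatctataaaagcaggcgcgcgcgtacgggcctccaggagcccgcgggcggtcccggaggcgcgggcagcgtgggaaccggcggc
Isg15: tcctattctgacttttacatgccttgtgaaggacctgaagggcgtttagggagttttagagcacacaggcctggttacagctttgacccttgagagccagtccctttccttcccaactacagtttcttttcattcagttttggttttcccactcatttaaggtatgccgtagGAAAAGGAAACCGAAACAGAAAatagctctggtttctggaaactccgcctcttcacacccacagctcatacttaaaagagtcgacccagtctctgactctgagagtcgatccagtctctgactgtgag
Oas1g: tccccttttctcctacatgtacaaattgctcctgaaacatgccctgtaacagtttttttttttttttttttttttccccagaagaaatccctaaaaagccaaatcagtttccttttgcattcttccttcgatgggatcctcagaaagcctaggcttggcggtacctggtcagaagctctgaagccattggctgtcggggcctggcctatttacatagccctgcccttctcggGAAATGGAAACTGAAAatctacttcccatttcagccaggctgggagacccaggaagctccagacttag
Irf1 held 1 GAS match, beginning 90 bases before the start, and Irf8 held 2, at 171 and 153 bases before it; neither held an ISRE match in this window, and a second RefSeq start of each had no match to either core. Isg15 held 3 overlapping ISRE matches, at 78, 72 and 66 bases before the start, and Oas1g 2, at 18 and 12 bases. Of other members highest on day 7 replicate 4, Ifit3, Igtp and Rsad2 held ISRE matches and Irf9, Oasl2 and Trim25 held none. No promoter was listed for Dhx58, Ifi27, Parp14 and Usp18, also highest there. Among tested members highest on another array, Bst2, Cxcl10, Eif2ak2, Gbp2, Ifitm2, Ifitm3, Irgm1 and Stat2 held ISRE matches. A link between such matches and the values of that array was not tested. RefSeq listed a promoter for 31 of the 39 members, 35 promoters in all. The ISRE core was found in 18 of these 35 (51.4%), beside 3.44% of 32851 promoters of the same length, and the GAS core in 9 (25.7%), beside 8.3%. Besides Irf1 and Irf8, GAS matches were found in Bst2, Eif2ak2, Ifi35, Ifit2, Ifitm3 and Igtp, which did not pass. Oas1a, which was not tested, held one as well. The 2 motifs can share bases, a match is a description of letters only, and members were listed as interferon-stimulated genes to begin with.

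None of the 3 genes of the ISG15 system passed the test. Isg15, a ubiquitin-like protein conjugated to others during the response, read 7.16, 7.00, 7.29 and 7.91 at day 7 and 7.10, 7.02, 7.22 and 7.05 at day 20. Day 7 replicate 4 was the highest and the other 7 arrays lay between 7.00 and 7.29. The difference was -0.24 (SE 0.18, limma adjusted p = 0.506), and -0.05 without day 7 replicate 4. Usp18, which removes Isg15 and dampens the type I receptor, differed by -0.085 (adjusted p = 0.767). Trim25, a ubiquitin ligase of the RIG-I pathway, read 10.02, 10.22, 10.45 and 10.62 at day 7 and 10.37, 10.25, 10.55 and 10.13 at day 20, and did not differ beyond its spread (-0.0025, 95% confidence interval -0.327 to 0.322, adjusted p = 0.995); its sign turned in 6 of 17 settings.

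The OAS enzymes make the 2-5A messenger that activates an RNA-degrading nuclease. Oas1g read 7.69, 8.09, 8.48 and 9.35 at day 7 and 8.0, 7.82, 7.98 and 7.90 at day 20. The day 7 SD was 0.71 and that of day 20 was 0.08, with day 7 arrays on both sides of the day 20 band. The difference was -0.48 (SE 0.31, limma adjusted p = 0.437; -0.16 without day 7 replicate 4). A second probe was likewise highest on day 7 replicate 4, at 8.69 against 7.18 to 7.85 on the other 7 arrays. Oasl1, which in mice restrains translation of Irf7, read 7.53, 7.99, 7.91 and 8.08 at day 7 and 8.15, 8.35, 8.36 and 7.82 at day 20; the groups overlapped and the difference of 0.29 did not pass (adjusted p = 0.338). Oasl2 differed by -0.17 (0.565), Oas1a and Oas2 were above the limit on 1 array of each day, and Oas3 on none. Oas1 genes are close copies of one another, and how the probes separate them was not tested.

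The IFIT proteins bind viral RNA that lacks host cap marks. Ifit2 was at 7.27 ± 0.18 on day 7 and 7.28 ± 0.18 on day 20, and Ifit3 at 6.99 ± 0.14 and 6.96 ± 0.06 (SD, n = 4 each); neither passed (adjusted p = 0.976 and 0.867). Ifit1 was below the limit on all 8 arrays, at 6.66 to 6.77. Ifit1 is among the strongly induced genes of an interferon response in most cells, so the arrays hold no measured level of it at either day.

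**Figure D3:**
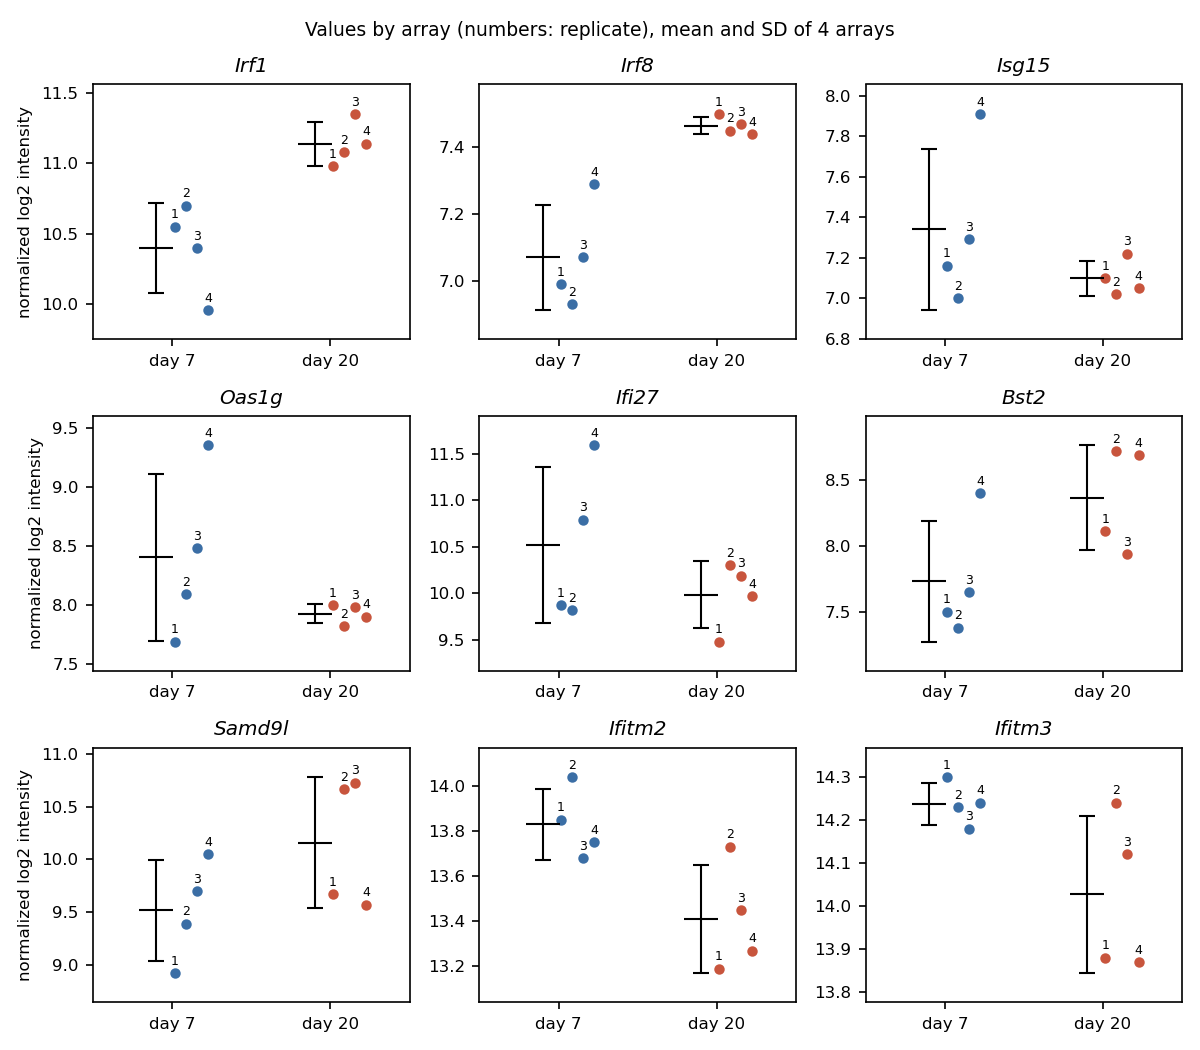
Normalized log2 intensity of 9 interferon response genes by array (dots numbered by replicate; blue day 7, red day 20), with the mean and SD of the 4 arrays of each day in black; each panel has its own axis. Irf1 and Irf8 were higher on every day 20 array. Isg15, Oas1g and Ifi27 were highest on day 7 replicate 4. Samd9l, Ifi27, Ifitm2 and Ifitm3 were lower on day 20 replicates 1 and 4 than on replicates 2 and 3.

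The membrane proteins Ifitm1, Ifitm2 and Ifitm3, which block entry of enveloped viruses, gave signals far above the limit at both days. Ifitm2 read 13.85, 14.04, 13.68 and 13.75 at day 7 and 13.19, 13.73, 13.45 and 13.27 at day 20. Of the day 20 arrays, replicate 2 lay inside the day 7 range and the other 3 below it. The difference of -0.42 (SE 0.13) missed the threshold (limma adjusted p = 0.114); it passed without day 20 replicate 2 (-0.53, adjusted p = 0.0479) and was -0.24 on the 6 arrays with Xist signal. Ifitm3 read 14.30, 14.23, 14.18 and 14.24 at day 7 and 13.88, 14.24, 14.12 and 13.87 at day 20. Its 2 low arrays were those without Xist signal, and its difference was -0.21 on all arrays (adjusted p = 0.243) and -0.06 on the 6 with Xist signal (0.76).

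Ifitm1 read 13.95, 13.98, 14.07 and 13.86 at day 7 and 13.64, 14.16, 13.81 and 13.83 at day 20. Day 20 replicates 1 and 2 were the lowest and the highest of all 8 arrays, and the difference was -0.105 (adjusted p = 0.658), 0.02 on the 6 Xist arrays and -0.205 without day 20 replicate 2. A second Ifitm1 probe read 13.13, 13.56, 13.70 and 13.03 at day 7 and 11.87, 13.62, 13.13 and 12.01 at day 20. Its difference was -0.70. On that probe the arrays without Xist signal were the lowest by more than 1 log2 unit, a gap that the brightest probe did not show. The Ifitm genes resemble one another in sequence, and which transcripts each probe binds was not tested.

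Bst2 (tetherin), which holds budding viruses at the cell surface, read 7.50, 7.38, 7.65 and 8.40 at day 7 and 8.11, 8.72, 7.94 and 8.69 at day 20. Day 7 replicate 4 lay inside the day 20 range, and the other day 7 arrays lay below it. The difference of 0.63 (SE 0.26) missed the threshold (limma adjusted p = 0.219); without day 7 replicate 4 it was 0.855 (adjusted p = 0.077).

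No tested GTPase passed the test; these enzymes act against pathogens inside cells. Irgm1, which acts on pathogen vacuoles and autophagy, read 11.53, 11.01, 11.83 and 11.58 at day 7 and 11.49, 11.67, 11.33 and 11.31 at day 20. The day 20 values fell inside the day 7 range (difference -0.04, 95% confidence interval -0.423 to 0.348, limma adjusted p = 0.935), and the sign turned in 4 of 17 settings, the 6 Xist arrays among them (0.012). Igtp differed by -0.17 (0.647), and Gbp2, near the limit at 6.78 to 6.89, by 0.02 (0.888). Mx1 was above the limit on 3 arrays and Mx2 on 2; common laboratory mouse strains carry defective alleles of these antiviral GTPases, as background.

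Of the other effectors, Eif2ak2 (PKR), the kinase that halts translation on sensing double-stranded RNA, read 10.29, 10.06, 10.16 and 9.87 at day 7 and 9.90, 9.85, 9.81 and 9.86 at day 20. The lowest day 7 array fell inside the day 20 range and the other 3 lay above it; the difference was -0.24 (SE 0.09, limma adjusted p = 0.171). Ifi27, a mitochondrial interferon-induced protein, read 9.87, 9.82, 10.79 and 11.59 at day 7 and 9.48, 10.30, 10.19 and 9.97 at day 20. Day 7 replicates 3 and 4 were the highest of all arrays and the SD of day 7 was 0.84, larger than the difference of -0.53 (adjusted p = 0.506; -0.175 without day 7 replicate 4). A second Ifi27 probe was likewise highest on day 7 replicate 4, at 10.79 against 8.83 to 9.96 on the other arrays.

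Samd9l, an interferon-inducible antiviral and growth-restraining protein, read 8.92, 9.39, 9.70 and 10.05 at day 7 and 9.67, 10.67, 10.73 and 9.57 at day 20. The day 20 arrays split into 2 high ones, with Xist signal, and 2 that fell inside the day 7 range, without it. The difference was 0.645 (SE 0.34, limma adjusted p = 0.334) on all arrays and 1.19 on the 6 arrays with Xist signal (0.0994). Ifi35, which forms a complex with the interferon-induced protein Nmi, read 8.21, 9.08, 8.0 and 8.33 at day 7 and 8.23, 8.31, 8.14 and 8.50 at day 20; the groups overlapped (difference -0.11, adjusted p = 0.835), and without day 7 replicate 2 the difference was 0.115. The rest did not pass either: Parp14, an ADP-ribosyltransferase, at -0.12, Rsad2 (viperin) at 0.07 and the receptor chaperone Rtp4 at 0.06. Xaf1, a promoter of apoptosis, was above the limit on 1 array of each day. Cxcl10, the chemokine that draws T cells to inflamed tissue, was at 7.08 ± 0.11 on day 7 and 6.93 ± 0.14 on day 20 (SD, n = 4 each; limma adjusted p = 0.406).

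**Figure D4:**
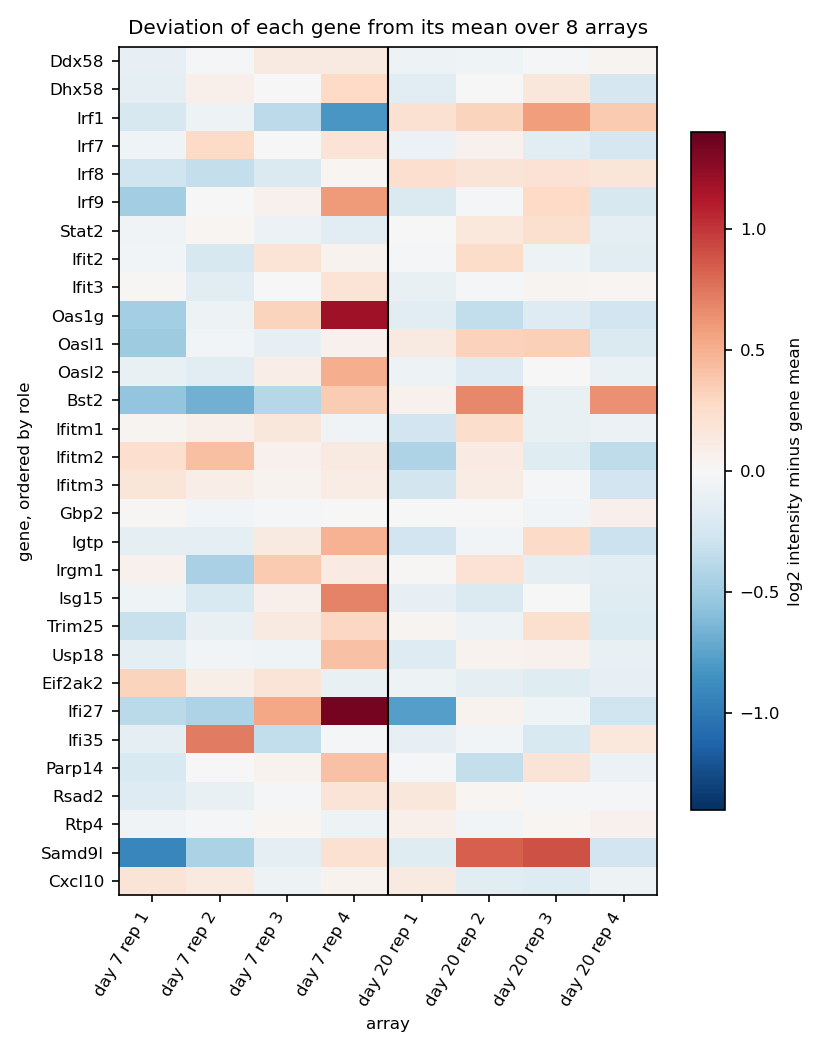
Log2 intensity of the 30 tested interferon response genes on each array minus the gene's mean over the 8 arrays (red higher, blue lower), ordered by role; the black line separates the days. On day 7 replicate 4 most genes are red and Irf1 is blue; Irf1 and Irf8 are red on all 4 day 20 arrays.

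The mean deviation of the 30 tested members from their own means was highest on day 7 replicate 4, at 0.225, and lowest on day 7 replicate 1, at -0.149, so the lowest and the highest array came from the same day. Day 7 replicates 2 and 3 were at -0.06 and 0.02. The day 20 arrays lay between these extremes, at 0.065 and 0.061 with Xist signal and -0.08 on each of the 2 without it.

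Day 7 replicate 4 held the single highest value of 12 of the 30 tested members (40%), whereas 9.4% of all genes tested were highest on that array. These 12 were Dhx58, Irf9, Ifit3, Oas1g, Oasl2, Igtp, Isg15, Trim25, Usp18, Ifi27, Parp14 and Rsad2, of which Dhx58 is a sensor, Irf9 a transcription factor and the other 10 effectors. Against the mean of the other day 7 arrays, that array was higher by 1.43 for Ifi27, 1.26 for Oas1g, 0.89 for Bst2, 0.76 for Isg15 and 0.74 for Irf9. It was lower for 8 of the 30 members, with differences of -0.59 for Irf1, -0.30 for Eif2ak2 and -0.14 to -0.04 for the other 6. The array's 24 members above their own mean compare with 8 to 17 on the other arrays. Without it the median difference over the 30 members was -0.01 in place of -0.09, and Irf1 (0.59, adjusted p = 0.0371) and Irf8 (0.47, adjusted p = 0.00978) still passed.

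The median SD over the 30 members was 0.209 at day 7 and 0.156 at day 20, beside 0.121 and 0.124 over all genes tested, and 19 of 30 members (63.3%) varied more at day 7 than at day 20, as 48.9% of all genes did. At day 20, 10 of the 30 members were lower on both arrays without Xist signal than on both with it and 4 were higher; of all genes tested, 22% were lower and 19.3% higher. The widest of these gaps was that of Samd9l (-1.08), followed by Ifi27 (-0.52) and Igtp (-0.395).

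**Figure D5:**
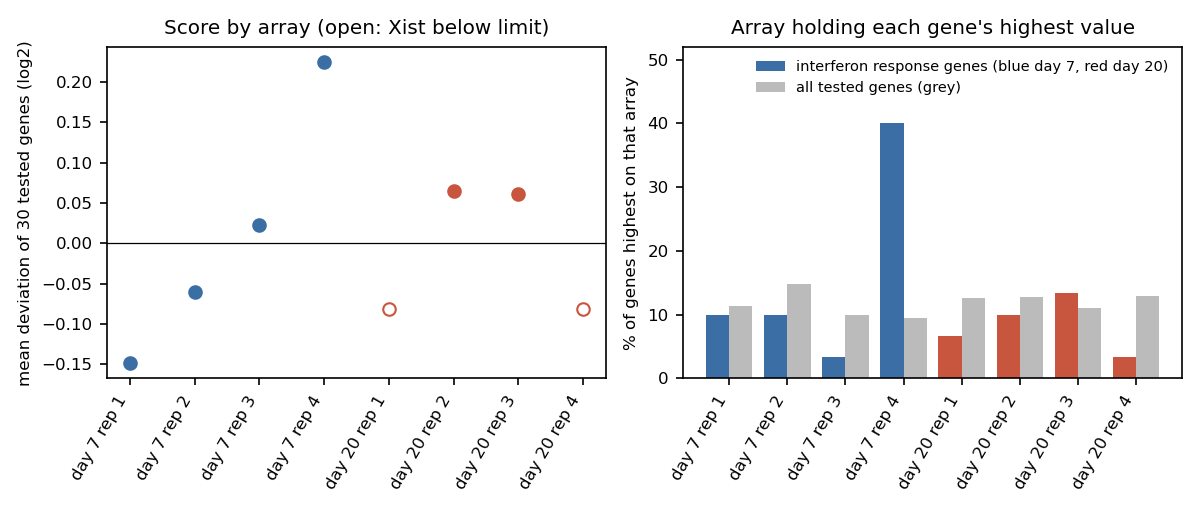
Left, mean deviation of the 30 tested interferon response genes from their own means on each array (log2; blue day 7, red day 20, open circles for arrays with Xist below the limit), from -0.149 to 0.225. Right, percent of genes whose single highest value was on that array, for the 30 genes (coloured) and for all 12466 genes tested (grey); day 7 replicate 4 held 40% of the former and 9.4% of the latter.

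Other genes of the pathway were read from 4 lists, of which 131 genes had a named probe and 89 were tested; 2 rose and 1 fell (2.51% and 2.33% of all genes), and their median difference was 0.03. Of the interferon genes themselves, 5 of 16 with a probe were tested and 0 changed, 0 of them with an unadjusted p under 0.05 (limma). The 4 with the smallest p, Ifnz, Ifna12, Ifnab and Ifna1, differed by 0.04, -0.05, 0.04 (-0.095 on the 6 Xist arrays) and -0.03. Chosen after their values were seen, Ifnb1 and Ifng, encoding interferon beta and gamma, were each above the limit on 1 array of 8.

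Among 18 tested genes of receptors and signalling, Irf2, which binds the same elements as Irf1 and opposes it at many promoters, fell. It read 10.70, 10.91, 10.78 and 10.82 at day 7 and 10.36, 10.39, 10.55 and 10.58 at day 20. The groups did not overlap, and the difference was -0.33 (SE 0.07, limma adjusted p = 0.0414); without any 1 array the adjusted p was 0.0562 to 0.1. It was 0.115 on the 6 Xist arrays, and Irf2 kept its call in 4 of 17 settings. Ifnlr1, the chain particular to the type III interferon receptor, was at 9.78 ± 0.17 and 9.46 ± 0.02 without passing (adjusted p = 0.0745; 0.0162 without day 7 replicate 4). The repressor gene Irf2bp1 differed by -0.44 (0.104; 0.0346 without day 20 replicate 4) and the feedback inhibitor gene Socs3 by 0.98 (0.137). The probe of Ifnar1, a chain of the type I receptor named here after its values were seen, was above the limit on no array.

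Among 20 tested genes of nucleic acid sensing and adaptors, 2 rose. Tlr4, the receptor for bacterial lipopolysaccharide, read 6.77, 6.87, 6.83 and 6.85 at day 7 and 7.32, 7.14, 7.11 and 7.15 at day 20. The groups did not overlap, though day 7 was at the limit (difference 0.35, SE 0.06, limma adjusted p = 0.0187; 1.14 with the background mode subtracted; adjusted p = 0.0611 and 0.053 without day 7 replicates 1 and 3 and 0.0717 on the 6 arrays with Xist signal). Ikbke, a kinase that activates Irf3 and Irf7, read 7.77, 7.81, 8.04 and 8.17 at day 7 and 8.34, 8.35, 8.43 and 8.63 at day 20. Again the groups did not overlap (difference 0.49, SE 0.11, limma adjusted p = 0.0402; 0.145 on the 6 arrays with Xist signal, and 0.0676 to 0.104 without any 1 array except day 7 replicate 4). Unc93b1, which delivers nucleic acid-sensing Toll-like receptors to endosomes, differed by 0.76 (0.0674; on the 6 arrays with Xist signal 1.06, adjusted p = 0.0343), and Samhd1, an enzyme that depletes nucleotides, by -0.28 (0.0566).

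Of 46 tested further interferon-stimulated genes 0 changed, and 13 had an unadjusted p under 0.05 (limma), as did 20.4% of all genes tested. The nearest were Mlkl, the effector of necroptosis (0.745, adjusted p = 0.0515), Trafd1, a negative regulator of innate signalling (-0.335, 0.0528), Mov10, an RNA helicase (-0.36, 0.0924), and Tdrd7 (-0.42, 0.16). Mlkl passed in 5 of 17 settings and reached 0.175 on the 6 Xist arrays. Trafd1 passed without day 20 replicate 1 (0.0263), and with probes averaged its difference was -0.096 (0.366). That of Mov10 was -0.204 with probes averaged and -0.744 with the background mode subtracted, and that of Tdrd7 was -0.195 on the 6 Xist arrays. The median of this list was 0.03, and its differences ran from -0.54 to 0.745.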

How the data were processed

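Per the labels' protocols, biotin-labelled RNA of 4 organoid samples per day was put on Illumina mouse arrays. The authors deposited normalized log2 intensities, and every array had the same quantiles to within 0.01. The lowest values lay near 6.45, a floor well above 0 that can compress changes of dim genes. Whether this floor is background left in or an offset added is not known. How the authors normalized is not given in the sources used here. Non-normalized values were left out, because the headings of their 16 per-sample columns match no sample label. In place of detection p-values, the filter used a background limit of 6.796: the commonest value (6.7) was taken as background, the lower side of the peak gave its SD (0.0584), and the limit leaves 0.05 of a normal background above it.

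Probes were named through the platform annotation: 34885 probes had 1 gene symbol, 18 had several, and 10378 that it does not list are unnamed here. Entrez numbers of 34807 were found in the RefSeq table of GRCm38.p6, and 0 symbols changed. The probe brightest on average stood for its gene, and 12466 of 19057 genes above the limit on at least 4 arrays were tested. The fit was limma's (version 3.58.1, R 4.3.3; lmFit and eBayes, no covariates, two-sided), with Benjamini-Hochberg adjustment over all 12466 genes; changed means an adjusted p under 0.05. The fit was tested on simulated data. Arrays carry no counts, so the number of arrays and the signal over background limit precision.

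The members and all lists were chosen with earlier results of these data known. Values are given on all 8 arrays for changed members and, beyond these, for the 10 with the highest mean and the 10 with the largest difference; of each further list, changed genes and up to 4 with the smallest p are named. A gene named outside these rules is marked as such. Promoter sequences are those of RefSeq's GRCm38.p6. Figures used matplotlib 3.10.9 in Python 3.11.15. The fit was repeated with a replicate block, with cyclic loess, with no filter and a stricter one, with probes averaged, with a variance trend, with array weights, after background subtraction, on the 6 Xist arrays, for 2-fold changes only, and without each array. Background subtraction removed the commonest value, 6.7, on the intensity scale and added an offset of 16, which assumes that this value is background. The labels do not say what a replicate number marks, so the numbers were not taken as pairs. Deviations from the day mean across tested genes had r of -0.01 to 0.142 between same-numbered arrays of the 2 days. Between arrays of other numbers r was -0.171 to 0.151. These values cannot exclude a weak pairing.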

Additional observations from a re-analysis of the deposited data

How the results depend on the processing

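Over the whole table, the 604 changed genes became 401 with replicate number as a block, 162 with at least a 2-fold change required, and 301 to 579 with each array left out; under the other 8 settings the count stayed within 1.5 times. The replicate numbers were not taken as pairs, so the block is given only here. The 2 changed interferon response genes became 0 under the replicate block and 0 on the 6 Xist arrays, where 5 and 6 had an unadjusted p under 0.05 by limma. Where 2-fold was required the count was 0, as the log2 differences of the members in the main fit reached only -0.532 to 0.735. Without that requirement 6 had an unadjusted p under 0.05 by limma. The count was 1 under cyclic loess, with no filter and with probes averaged, each time Irf8, and ranged from 0 to 2 with each array left out, where without day 20 replicate 2 the 1 changed was Ifitm2, lower. The median over tested members moved by less than the spread between arrays in all 17 settings (-0.109 to -0.006 with each array left out, 0.01 on the 6 arrays with Xist signal, in sign opposite). The 3 changed genes of the other lists became 5 with a variance trend (Ikbke, Mlkl, Nlrx1, Tlr4 and Unc93b1, without Irf2). They became 1 on the 6 Xist arrays and 0 to 3 with each array left out. They became 0 where 2-fold was required, as the log2 differences of these lists in the main fit reached only -0.538 to 0.983. Without that requirement 24 of the 89 tested genes of these lists had an unadjusted p under 0.05 by limma, as did 20.4% of all genes tested. On those 6 arrays 65.9% of all changed genes were higher, against 51.8% on all 8. The cause of these shifts was not tested. Of 17 settings, Irf1 kept the call in 6, Irf8 in 8, Irf2 in 4, Ikbke in 7 and Tlr4 in 13. None of these genes changed sign. Their groups did not overlap, so leaving out or weighting arrays could not turn the sign, and its constancy is no support for the calls. Signal near background limits what can be said of the 8 members not tested and may compress the changes of Irf8 and Tlr4.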
